A study of Mus musculus with 3 samples.

Results

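Bone marrow progenitors from an Lztr1 knockout, which targets the ligase adaptor LZTR1, were compared directly with progenitors from mice with the M90I variant of RIT1. There was 1 single-cell library on each side, and recombination was not checked in single cells. The cells compared were all barcodes of the Lztr1 knockout and Rit1-M90I libraries with at least 1000 UMIs (distinct mRNA tags), at least 500 detected genes and at most 10% mitochondrial UMIs. They numbered 12239, of which 2422 were Lztr1 knockout and 9817 Rit1-M90I, among 19762 such barcodes in the 3 libraries of the study. The third library, a Cre-negative control with 7523 of them, serves as a point of reference.

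The study measured mRNA in single cells of mouse bone marrow with the 10x 3' v3 droplet method, and its design text asks what either genotype changes against a control. The knockout mice were Lztr1fl/fl;Mx1Cre+, with both Lztr1 copies flanked by loxP sites. The Rit1-M90I mice were Rit1M90I/+;Mx1Cre+, with 1 variant copy. The control was Rit1M90I/+Mx1Cre-, although the word wild-type stands in its title. Mice of all 3 genotypes were 8 weeks old when they received 3 doses of pIpC at 12 mg/kg. This synthetic double-stranded RNA provokes interferon, which switches on Mx1-Cre, so marrow cells that respond to interferon recombine, and so can cells of other organs. Marrow was collected 4 weeks later, and live cells negative for CD3, CD11b, Gr1, B220 and Ter119 were sorted. Lymphocytes, mature myeloid cells and late red cells are mostly taken out by this sort. Both mutant libraries share Cre and pIpC, so those do not separate them. How many mice gave each library, and which Lztr1 exons were removed, the labels do not say. Any difference of strain background, animal or library cannot be told apart from genotype. The control label names the Rit1M90I allele, as the Rit1-M90I label does, and the knockout label does not. Whether that allele is active without Cre, the labels do not say. Where the control lies with Rit1-M90I and the knockout stands apart, a difference between mouse lines cannot be told apart from loss of Lztr1. Sex is not in the labels and was not tested, and Xist is compared between the mutants below.

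RIT1 is a small GTPase of the RAS family that can activate the RAF, MEK and ERK kinases. LZTR1 is the substrate adaptor of a CUL3 ubiquitin ligase and brings RIT1, and some RAS proteins, to that ligase for breakdown. M90I is among the RIT1 substitutions known from Noonan syndrome and from myeloid malignancy, and such variants escape recognition by LZTR1. Loss of the adaptor and a variant that the adaptor cannot bind therefore both leave RIT1 protein in place, while other LZTR1 substrates are affected by the first only.

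Every value below comes from 1 library a side, so no difference has a replicate check and no test was made. Parentheses hold 95% intervals, which cover counting error only and not the spread between mice or between cells. The deposited matrices held 3014 barcodes and 30398349 UMIs for the knockout and 11573 barcodes and 88560148 UMIs for Rit1-M90I. The cell filter took away 19.6% of knockout, 15.2% of Rit1-M90I and 11.2% of control barcodes, mostly through the mitochondrial limit. After removal of called doublets, 2338 knockout, 9367 Rit1-M90I and 7273 control cells remained. Knockout cells were the more deeply counted, with a median of 9922 UMIs against 6590 in Rit1-M90I and 6861 in the control. The mutant libraries shared 7 barcodes. Clustering gave 30 clusters, of which 21 were named in 17 classes from marker genes, each name meaning cells like that type. The 9 unnamed clusters held 28.7% of knockout, 29.6% of Rit1-M90I and 24.6% of control cells.

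One unnamed cluster stood apart from the rest, because it came almost wholly from 1 library. It held 701 Rit1-M90I cells, which were 7.48% (6.96 to 8.04) of that library, with 3 control cells. It held 0 of 2338 knockout cells, which allows a share of up to 0.128%. Its Rit1-M90I cells had a median of 1624 UMIs, and its leading gene, Gm42418, which overlaps a ribosomal RNA repeat, was at 16992 CPM against 3433 CPM in the other Rit1-M90I cells and 4441 CPM in the knockout. CPM is the UMI count of a gene scaled to 1 fixed total of UMIs for the cells summed. These cells carried 1.42% of the library's UMIs, and 12.7% of them passed a stricter cell filter. They enter the denominator of every Rit1-M90I share, so ratios without them are given where that takes a ratio to within counting error of 1, and for the main classes.

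The 2 altered genes were measured first. The M90I change lies in codon 90 of 219, in exon 5 of 6 of the mouse Rit1 transcript ENSMUST00000029692. That codon sits at chr3:88726310-88726312, on the plus strand of mm10. The reference sequence around it, from the GENCODE M21 annotation of GRCm38 (the assembly that mm10 names), is shown because the distance from this codon to the counted end of the message decides what the counts can say. Capitals mark the methionine codon that the variant replaces, and the window spans chr3:88726298-88726324.
Rit1 codon 90 region: cgggatcagtatATGagggcaggagaa
The codon is 775 bases from the annotated 3′ end of a transcript of 1204 bases. The method counts tags near the 3′ end, so the Rit1 values below sum variant and wild-type messages and do not tell the alleles apart.

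Lztr1 (ENSMUSG00000022761, chr16:17508688-17526333, plus strand) was the lower of the pair in the knockout. Over all kept cells it was at 6.34 CPM in the knockout, 15.2 CPM in Rit1-M90I and 17.3 CPM in the control. These values rest on 175, 1212 and 1078 UMIs. The knockout over Rit1-M90I ratio was 0.417 (0.354 to 0.489), and it was 0.414 with doublets kept. Lztr1 tags thus remained in the knockout, and the ratio varied among classes. In erythroid progenitors Lztr1 was at 5.05 CPM against 19.1 CPM in Rit1-M90I, a ratio of 0.264 (0.176 to 0.385). In the monocyte lineage it was at 6.52 CPM against 14.1 CPM, a ratio of 0.464 (0.281 to 0.730). In basophils and mast cells it was at 9.58 CPM against 19.1 CPM, a ratio of 0.501. In erythroblasts the ratio was 0.668 (0.384 to 1.13) and in the stem and multipotent class 0.623 (0.230 to 1.46), where 7 knockout UMIs were counted. Counting error does not separate the 2 libraries in those last classes. Without knowing the removed exons, 3′ tags may lie outside them, and their level is then no measure of the deletion.

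Rit1 (ENSMUSG00000028057, chr3:88716838-88731049, plus strand) mRNA differed little between the 2 mutants. It was at 11.7 CPM in the knockout, 13.6 CPM in Rit1-M90I and 8.62 CPM in the control, a knockout over Rit1-M90I ratio of 0.860 (0.757 to 0.974). With doublets kept the ratio was 0.846. With the cluster makeup of the libraries made equal, as described below, Rit1 was at 12.4 CPM in the knockout and 13.6 CPM in Rit1-M90I, a ratio of 0.909 (0.795 to 1.04) whose interval includes equality. Basophils and mast cells had more Rit1 mRNA than the whole libraries, with 30.3 CPM in the knockout, 33.7 CPM in Rit1-M90I and 20.9 CPM in the control. The widest gap among the larger classes was in erythroid progenitors, with 6.47 CPM in the knockout, 9.43 CPM in Rit1-M90I and 4.73 CPM in the control.

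Among classes with at least 100 cells in both mutants, the red cell lineage differed most, and it took the larger share of the knockout library. Erythroid progenitors, which express Car1, Car2, Ermap and Klf1, made up 11.2% (9.92 to 12.5) of knockout cells, 5.88% (5.41 to 6.38) of Rit1-M90I cells and 8.21% of control cells. The control share lay between the mutants. Erythroblasts, the later stage that makes hemoglobin, made up 4.53% (3.73 to 5.46) of knockout, 1.71% (1.46 to 1.99) of Rit1-M90I and 1.43% of control cells. Here Rit1-M90I was near the control and the knockout stood above both. The knockout over Rit1-M90I ratio was 1.90 (1.65 to 2.18) for erythroid progenitors and 2.65 (2.09 to 3.38) for erythroblasts, or 1.76 (1.53 to 2.02) and 2.46 (1.93 to 3.13) without the Rit1-M90I cluster of low UMI content. Both classes together gave a ratio of 2.07 (1.84 to 2.33), or 1.91 (1.70 to 2.15) without it. Among named erythroid cells, erythroblasts were 28.9% (24.3 to 33.8) in the knockout, 22.5% (19.5 to 25.8) in Rit1-M90I and 14.8% (12.3 to 17.7) in the control. The sort removes Ter119-positive cells, so these erythroblasts are the part of that stage that passed the gate.

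The markers that named these classes, counted over all kept cells without any cluster, gave the same order. They come from the same cells and are not an independent check. The 13 erythroid progenitor markers summed to 3073 CPM in the knockout, 2055 CPM in Rit1-M90I and 2590 CPM in the control. The 12 erythroblast markers summed to 683 CPM, 356 CPM and 253 CPM in the same order. The share ratio held its side of 1 under each of the other ways of making the classes that were tried, but its size for erythroblasts depended on them. On the log2 scale it was 1.41 as reported, 1.03 under a stricter cell filter, 0.98 when libraries were clustered separately and 0.70 with each cell classed by its marker score.

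Granulocyte and basophil classes were the larger in Rit1-M90I. Neutrophil progenitors, which express the primary granule proteases Elane and Prtn3, made up 4.53% (3.73 to 5.46) of knockout, 8.49% (7.93 to 9.07) of Rit1-M90I and 5.95% of control cells. The ratio was 0.534 (0.438 to 0.651), or 0.494 (0.406 to 0.602) without the cluster of low UMI content. Rit1-M90I stood above both other libraries, and the knockout lay below the control. Basophils and mast cells, which express the proteases Mcpt8, Prss34 and Cpa3, made up 12.7% (11.4 to 14.1) of knockout, 16.2% (15.5 to 17) of Rit1-M90I and 15.8% of control cells, a ratio of 0.783 (0.697 to 0.879), or 0.724 (0.645 to 0.813) without it. Here Rit1-M90I was close to the control. The monocyte lineage class made up 9.28% (8.14 to 10.5), 11.7% (11.0 to 12.3) and 8.62% in the same order, a ratio of 0.797 (0.694 to 0.915), or 0.737 (0.642 to 0.847) without it. The monocyte order is not firm, since the log2 share ratio of -0.33 became 0.15 with doublets kept, 0.07 by marker score and 0.08 at a finer clustering. The size of the neutrophil progenitor ratio also depended on how the classes were made. Its log2 value of -0.90 was -0.60 by marker score and -0.31 when libraries were clustered separately. The neutrophil progenitor markers over all kept cells summed to 6617 CPM in the knockout, 10484 CPM in Rit1-M90I and 7265 CPM in the control.

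The stem and multipotent class, marked by Hlf, Mecom and Meis1, made up 4.11% of knockout, 3.63% of Rit1-M90I and 5.13% of control cells, and its ratio of 1.13 (0.906 to 1.41) was within counting error of 1. Plasmacytoid dendritic cells made up 5.43%, 4.09% and 4.46%, with a ratio of 1.33 (1.09 to 1.62). Conventional dendritic cells made up 4.23%, 3.30% and 3.81%, with a ratio of 1.28 (1.03 to 1.60). Lymphoid progenitors, marked by Dntt and Il7r, made up 3.76%, 2.89% and 3.45%, with a ratio of 1.30 (1.03 to 1.65). Without the Rit1-M90I cluster of low UMI content the conventional dendritic ratio was 1.19 (0.951 to 1.48), the lymphoid progenitor ratio 1.20 (0.951 to 1.52) and the plasmacytoid ratio 1.23 (1.01 to 1.49), so the first pair was then within counting error of 1. For plasmacytoid dendritic cells the log2 ratio of 0.41 became -0.61 when libraries were clustered separately. T cells that escaped the sort were 2.99% of knockout, 4.59% of Rit1-M90I and 9.72% of control cells, a ratio of 0.652 (0.509 to 0.836). Plasma cells, the source of immunoglobulin mRNA, were 1.80%, 2.29% and 1.76%, a ratio of 0.786 (0.567 to 1.09). Mature B cells had the lowest ratio of the 17 classes, 0.374 (0.173 to 0.810), which rests on 7 knockout cells.

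**Figure D1:**
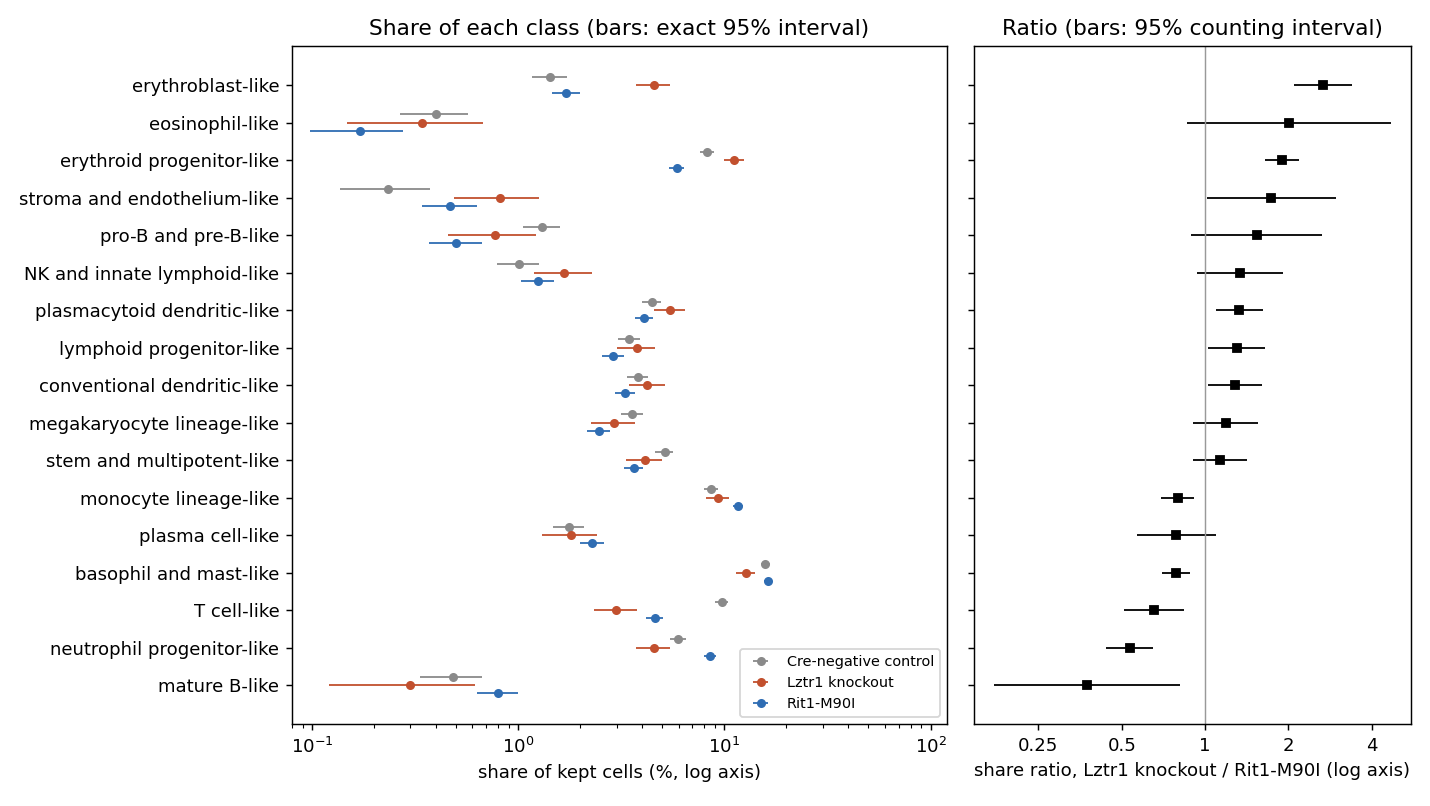
The left panel plots the share of kept cells in each of the 17 named classes (percent, log axis) for the 3 libraries, with exact 95% intervals, and the right panel the ratio of the Lztr1 knockout share to the Rit1-M90I share (log axis) with its counting interval. Erythroblasts (2.65) have the highest ratio, and neutrophil progenitors (0.534) lie lowest but for mature B cells.

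**Figure D2:**
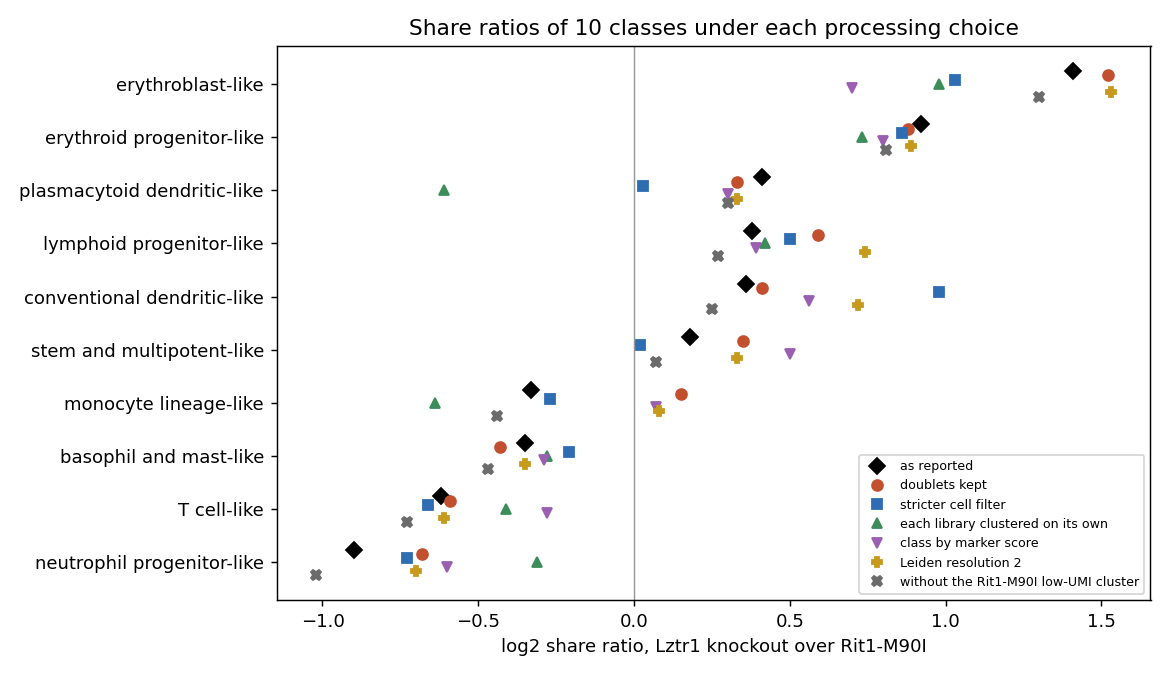
Each row is 1 of 10 classes and each point the log2 ratio of its share in the Lztr1 knockout to that in Rit1-M90I under 1 way of making the classes, the diamond being the value reported. Both erythroid classes stay right of 0 and neutrophil progenitors, basophils and T cells left of it, whereas monocyte lineage and plasmacytoid dendritic cells fall on both sides.

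Several unnamed clusters with progenitor genes took a larger share of the knockout. A cycling cluster led by Mxd3, Cox6a2 and Dntt made up 5.05% of knockout, 2.66% of Rit1-M90I and 3.85% of control cells, a ratio of 1.90 (1.53 to 2.35). A cluster led by Apoe and Trib2 made up 7.57%, 5.21% and 7.52%, a ratio of 1.45 (1.23 to 1.72), with the knockout at the control level. A cluster led by Cd34, Slco3a1 and Adgrl4, with 3 stem and multipotent markers among its 10 leading genes, made up 3.38%, 2.45% and 4.18%, a ratio of 1.38 (1.08 to 1.78) that was 1.28 (0.994 to 1.65) without the cluster of low UMI content. A cluster led by Gata3, Icos and Rora, genes of innate lymphoid and T cells, made up 3.12%, 2.18% and 1.06%, so both mutants exceeded the control. A dividing cluster with F13a1 and histone genes was equal in the mutants, at 8.04% and 8.08%, a ratio of 0.995, against 5.68% in the control.

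Gene levels over all kept cells followed these shares. A gene was called when its log2 ratio, log2 of (knockout CPM + 10) over (Rit1-M90I CPM + 10), was past 1.5-fold, among genes at 20 CPM or more in at least 1 of the mutants. This scale understates the ratio of scarce genes. Of 6062 genes, 36 (0.594%) were called higher in the knockout and 35 (0.577%) lower. Globin genes were among the highest. Hbb-bs, an adult beta globin, was at 210 CPM in the knockout, 95.2 CPM in Rit1-M90I and 46.6 CPM in the control, and Hba-a1, an alpha globin, at 132, 60.8 and 41.5 CPM. Car2, a carbonic anhydrase of red cells, was at 928, 548 and 701 CPM, and Klf1, an activator of erythroid genes, at 83.4, 49.9 and 67.7 CPM. All 13 measured genes of the adult globin and heme list were higher in the knockout, 5 of them called, with a median log2 ratio of 0.44 against 0.07 over all genes.

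Granule genes were on the other side. Prtn3, a protease of primary granules, was at 1691 CPM in the knockout, 3411 CPM in Rit1-M90I and 2085 CPM in the control. Elane, neutrophil elastase, was at 1250, 2160 and 1506 CPM, and S100a8, a calcium-binding protein of later neutrophils, at 43.9, 138 and 49.3 CPM. For all 3 genes Rit1-M90I stood above the control and the knockout below it. Of 9 measured primary granule genes, 3 were called lower in the knockout and none was above 0, with a median log2 ratio of -0.47. The 13 measured basophil and mast cell genes had a median of -0.34 with none called, but of -0.01 when each cell was thinned to 3000 UMIs. In sums over a library, a smaller share of a cell type and less of its mRNA per cell cannot be told apart.

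With the makeup of the 2 libraries made equal, almost all of these differences went. The clusters were made from expression in these same cells, and Klf1, Elane and globin genes were among the markers that named them. Level values of such genes within clusters are thus partly set by the clustering and cannot show unchanged expression per cell. The same limit applies to marker genes within a named class below. Each gene was averaged over the 22 clusters with at least 20 cells in both mutants, which held 96.9% of knockout and 89.6% of Rit1-M90I cells, with the same weight for a cluster in each library (its share of control UMIs). Of 6017 genes, 4 (0.0665%) were then called higher in the knockout and 5 (0.0831%) lower. Of the 36 genes called higher over all cells, 4 (11.1%) were still called, and of the 35 called lower, 4 (11.4%). Hbb-bs stood at 93.3 CPM in the knockout, 80.3 CPM in Rit1-M90I and 46.8 CPM in the control, with a log2 ratio of 0.19 that was -0.23 in thinned cells. Klf1 was at 69.7, 68.2 and 68.4 CPM and Elane at 1451, 1487 and 1522 CPM. The globin and heme list had a median of 0.03 and the primary granule list of -0.03, with none called in either, against 0.03 over all genes. Prtn3 kept part of its difference, at 1848 CPM in the knockout, 2449 CPM in Rit1-M90I and 2109 CPM in the control, while Mpo, another primary granule gene, leaned the other way at 2222, 1774 and 1889 CPM.

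**Figure D3:**
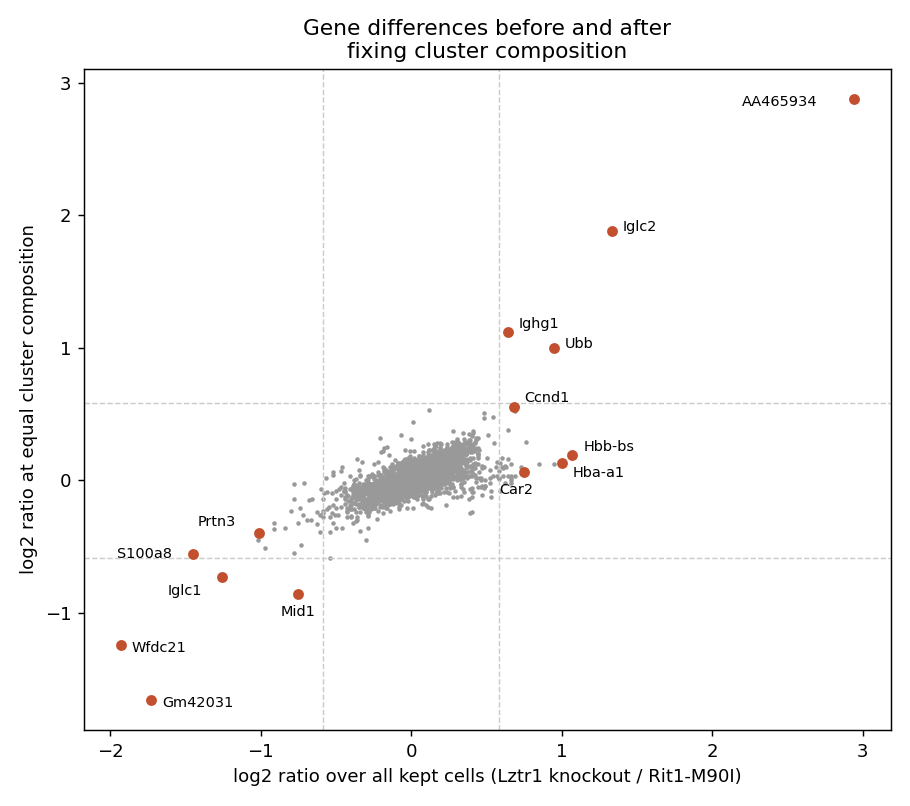
Each point is a gene, with its log2 ratio of Lztr1 knockout over Rit1-M90I summed over all kept cells (horizontal) and at equal cluster composition (vertical), and dashed lines at 1.5-fold. Hbb-bs, Hba-a1 and Car2 lie far right but near 0 on the vertical axis, whereas AA465934 and Ubb are high on both.

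The gene that separated the mutants most was AA465934, a processed transcript with no known coding product at chr11:83291699-83294632, plus strand. At equal composition it was at 84.3 CPM in the knockout, 2.86 CPM in Rit1-M90I and 2.67 CPM in the control. The knockout was 29.5 times higher (25.5 to 34.1) than Rit1-M90I, which lay at the control level. The control and Rit1-M90I share a Rit1 allele label, so a difference of mouse line cannot be told apart here. The log2 ratio of 2.88 ranged from 2.78 to 4.47 over the alternatives, the top value with a pseudocount of 1. Ubb, a gene for a chain of linked ubiquitin units (chr11:62551171-62553213, plus strand), was at 2223 CPM in the knockout, 1107 CPM in Rit1-M90I and 1149 CPM in the control, a ratio of 2.01 (1.99 to 2.03). Rit1-M90I and the control again lay together. Ubiquitin genes are near-identical in part, so tags of Ubb are uncertain between copies. Apart from Ubb, none of the 14 measured ubiquitin and CUL3 partner genes was called.

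The other 2 genes called higher were immunoglobulin constant genes. Iglc2, a lambda light chain gene (chr16:19198396-19200351, minus strand), was at 338 CPM in the knockout, 84.6 CPM in Rit1-M90I and 123 CPM in the control. Ighg1, a heavy chain gene, was at 142, 60.2 and 47.5 CPM. Without the plasma cell cluster their log2 ratios were -0.27 and 0.01 in place of 1.88 and 1.12, so both calls rest on that cluster, which held 42 knockout and 214 Rit1-M90I cells. Iglc1, the neighbouring lambda gene, was called the other way, at 380 CPM in the knockout, 636 CPM in Rit1-M90I and 24.3 CPM in the control, with a log2 ratio of -0.73 that was -0.04 in thinned cells. Lambda genes are close copies of one another, and which plasma cell clones a library caught was not tested.

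The remaining genes called lower were low or little known. Wfdc21, a secreted protein of neutrophils (chr11:83746940-83752642, plus strand), was at 10.0 CPM in the knockout, 37.2 CPM in Rit1-M90I and 20.1 CPM in the control. Gm42031, a long noncoding RNA gene (chr8:85125872-85132289, minus strand), was at 6.69, 42.8 and 4.02 CPM, so here Rit1-M90I stood apart and the knockout lay near the control. Mid1, an X-linked ubiquitin ligase gene, was at 15.6, 36.5 and 32.4 CPM, and there the knockout stood apart. Gm43305, a processed transcript on chromosome 14, was at 33.7, 55.7 and 46.9 CPM, a log2 ratio of -0.59 that was -0.56 under the stricter cell filter, short of the threshold.

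Below the threshold, the genes next highest in the knockout at equal composition began with Ccnd1. Ccnd1 encodes cyclin D1, which drives cells into the cycle and is a known target of ERK signalling, and it was at 51.7 CPM in the knockout, 32.0 CPM in Rit1-M90I and 35.1 CPM in the control, a ratio of 1.61 (1.51 to 1.73). Over all kept cells its log2 ratio was 0.68, past the threshold. Slpi, a protease inhibitor, was at 257, 175 and 190 CPM. Hist1h3c, a histone gene of dividing cells, was at 72.4, 47.4 and 59.2 CPM. Gm47283, annotated at chrY:90784738-90816464, was at 162, 113 and 68.0 CPM, and no sex was inferred from it. Gm47283 was also among the leading genes of the Rit1-M90I cluster of low UMI content, which the equal composition leaves out. H2-Q7, a class I MHC gene that is uncertain between close copies, was at 131, 91.7 and 132 CPM, and Cd74, the MHC class II invariant chain, at 93.9, 66.8 and 57.5 CPM. Gm26917 was at 233, 176 and 254 CPM, and Ifi27l2a, an interferon-induced gene, at 50, 36.3 and 65.5 CPM. The control was thus close to Rit1-M90I for Ccnd1, Slpi and Cd74 but not for H2-Q7, Gm26917 or Ifi27l2a, where Rit1-M90I was the low library.

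Among the lowest genes that were not called were S100a8 at 61.3 CPM in the knockout, 94.9 CPM in Rit1-M90I and 49.9 CPM in the control, and Ifitm1, an interferon-induced membrane protein of stem cells and basophils, at 186, 277 and 285 CPM. Hp, haptoglobin, was at 60.2, 89.7 and 66.7 CPM. Prss57, a granule protease, was at 47.9, 64.7 and 55.9 CPM, S100a6 at 89.7, 120 and 118 CPM and Txnip, a regulator of thioredoxin, at 121, 153 and 166 CPM. Pold4, Ctsh and Gstm1 completed that list of 12, with log2 ratios of -0.39, -0.36 and -0.32. For Ifitm1, S100a6 and Txnip the control matched Rit1-M90I, and the knockout was the low library.

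Within cell types, 6 classes had at least 100 cells in both mutants, and 3 more (stem and multipotent, lymphoid progenitor, conventional dendritic) with at least 80 were added after the cell counts were seen. Of 2953 genes at 50 CPM or more in at least 3 of the 6 classes, 241 were higher in the knockout in all 6 and 106 lower in all 6. Past 1.5-fold in all 6 were 5 genes. They were AA465934 and Ubb above, and the immunoglobulin genes Igkc, Igha and Jchain below. AA465934 had a median log2 ratio of 2.97 (range 2.43 to 3.56). It ran from 59.5 CPM in neutrophil progenitors to 177 CPM in erythroblasts of the knockout, against 2.03 to 5.87 CPM over the 9 classes of Rit1-M90I. No class of Rit1-M90I or of the control reached the lowest knockout class. Ubb had a median of 1.16 (range 0.83 to 1.35) and ran from 1547 CPM to 2789 CPM in the knockout against 655 to 1527 CPM in Rit1-M90I.

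H2-Q7 was higher in the knockout in each of the 9 classes, and in most of them the control lay with the knockout. In erythroid progenitors it was at 108 CPM in the knockout, 45.7 CPM in Rit1-M90I and 92.1 CPM in the control, a ratio of 2.35 (2.09 to 2.65). In neutrophil progenitors it was at 63.4, 31.3 and 58.5 CPM and in basophils and mast cells at 98.1, 52.0 and 93.7 CPM. The stem class had the higher levels at 204, 138 and 208 CPM. With doublets kept, its log2 ratio in conventional dendritic cells became -0.04. Over the 6 classes the median log2 ratio was 0.39 for B2m, the light chain of class I MHC, 0.54 for Gm47283 and 0.47 for Hist1h3c. Mib1, a ubiquitin ligase of Notch signalling, Nmral1 and Rock2, a kinase of the actin skeleton, followed at 0.32, 0.31 and 0.31. Xist, an RNA of the inactive X chromosome, was nearly level between the mutants, with a median of 0.09 (range 0.01 to 0.47). It reached 50 CPM in at least 1 mutant in each of the 6 classes.

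Ifitm1 was lower in the knockout in every class compared, by margins that differed widely. In stem and multipotent cells it was at 299 CPM in the knockout, 725 CPM in Rit1-M90I and 596 CPM in the control. In the monocyte lineage it was at 90.0, 205 and 127 CPM and in lymphoid progenitors at 8.01, 98.7 and 58.7 CPM. In basophils and mast cells, where it was most abundant, it was at 1851, 2074 and 2647 CPM, a ratio of 0.893. Of the others on that side in all 6 classes, Gm43305 had a median of -0.59, F630028O10Rik of -0.42, Car1 of -0.41, Prtn3 of -0.40, Snhg9 of -0.37 and Gfer of -0.35. Snhg9 and F630028O10Rik were also among the leading genes of the Rit1-M90I cluster of low UMI content.

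Igkc, the kappa light chain, is made by B and plasma cells, and its tags in other cells can come from RNA free in the droplets. In erythroid progenitors Igkc was at 37.0 CPM in the knockout, 131 CPM in Rit1-M90I and 53.8 CPM in the control, and in stem cells at 99.4, 310 and 121 CPM. All immunoglobulin constant genes together were at 75.3, 236 and 141 CPM in erythroid progenitors, and at 750, 1176 and 644 CPM in T cells, which do not make them. Rit1-M90I held more immunoglobulin RNA than the knockout in each of these classes that do not make it. Primary granule genes did the same in red cells, at 88.4 CPM in the knockout, 362 CPM in Rit1-M90I and 75.1 CPM in the control in erythroblasts. In T cells, which do not make them either, primary granule genes were at 669, 706 and 255 CPM, so there the mutants were close. The part of free RNA in the differences below was not tested.

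**Figure D4:**
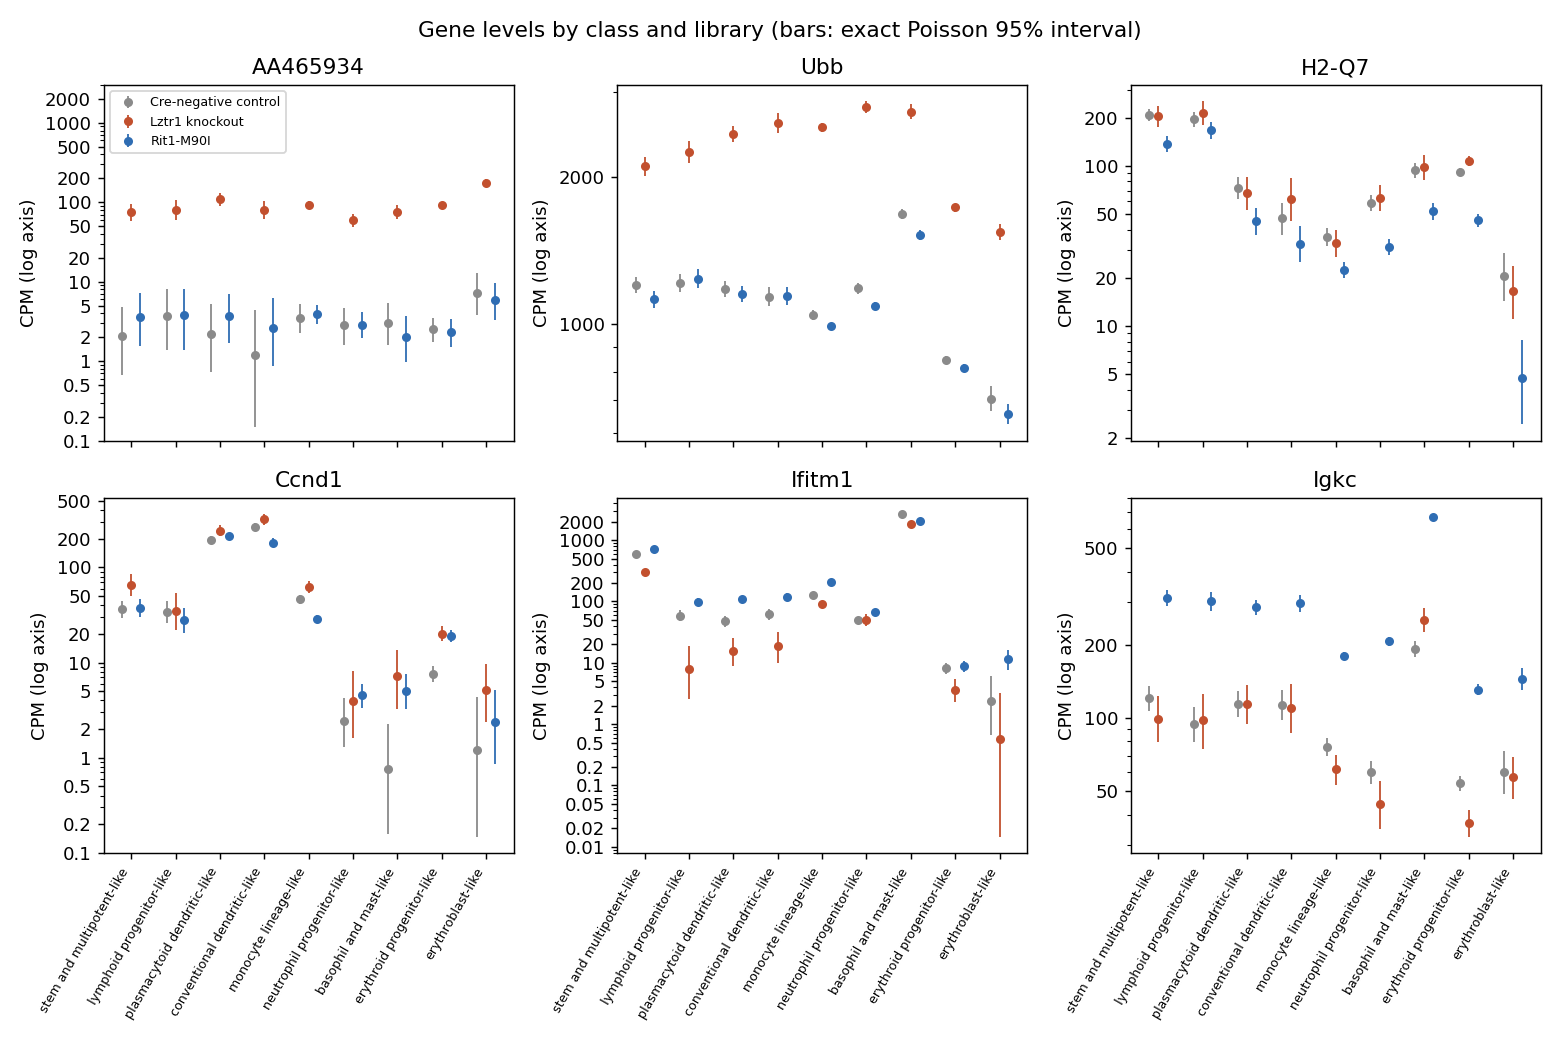
Levels (CPM, log axes) of 6 genes in 9 classes of the 3 libraries, with exact Poisson 95% intervals. AA465934 and Ubb of the Lztr1 knockout lie above the other libraries in every class, Rit1-M90I lies lowest for H2-Q7 in each class and highest for Igkc, and Ccnd1 separates the mutants in some classes and not in others.

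In erythroid progenitors 5 of 5516 genes (0.0906%) were called higher in the knockout and 10 (0.181%) lower. Klf1, which defines them, differed little, being at 227 CPM in the knockout, 221 CPM in Rit1-M90I and 222 CPM in the control. The class I MHC list leaned to the knockout, with 10 of 11 measured members above 0, 1 called and a median of 0.26. B2m was at 818, 552 and 673 CPM, a ratio of 1.48 (1.43 to 1.54), and H2-K1, a class I heavy chain, at 403, 293 and 399 CPM. Tap2 and Psmb8, of peptide transport and the immunoproteasome, were lowest, with ratios of 0.989 and 1.07. Of 6 measured primary granule genes 4 were called lower, among them Mpo at 23.1, 66.5 and 24.4 CPM. All primary granule genes in this class summed to 63.5, 185 and 62.6 CPM, and with doublets kept the log2 ratio of Mpo was -0.19. Igha was at 23.8, 67.5 and 70.7 CPM, so there the control was as high as Rit1-M90I.

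In erythroblasts 30 of 5437 genes (0.552%) were called higher and 36 (0.662%) lower. Hbb-bs was at 3203 CPM in the knockout, 2756 CPM in Rit1-M90I and 1599 CPM in the control, a ratio of 1.16 between the mutants, with a log2 ratio of 0.22 that was -0.24 in thinned cells, so the side of that difference is not firm. Interferon-stimulated genes leaned to the knockout, with 11 of 12 measured members above 0, 3 called and a median of 0.41, against 0.01 over all genes. Rsad2, an antiviral enzyme, was at 42.2, 10.6 and 15.8 CPM, a ratio of 3.99 (2.54 to 6.45). Isg15, a ubiquitin-like protein, was at 21.7, 9.40 and 12.1 CPM, and Ifi27 at 116, 72.8 and 109 CPM, while Ifi47 had a ratio of 0.818. In thinned cells the log2 ratio of Isg15 was 0.04, short of the threshold. Elane was at 13.7, 84.2 and 13.9 CPM and Prtn3 at 25.1, 120 and 17 CPM, granule genes that red cells are not known to use.

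In neutrophil progenitors 51 of 5309 genes (0.961%) were called higher in the knockout and 13 (0.245%) lower, with the median of all genes at 0.10. The later granule genes were the lower in the knockout. Of 5 measured, 4 were called lower, with a median of -0.84. Wfdc21 was at 106 CPM in the knockout, 394 CPM in Rit1-M90I and 224 CPM in the control. Lcn2, lipocalin, was at 22.1, 51.3 and 24.0 CPM, S100a9 at 29.5, 60.6 and 30.2 CPM and S100a8 at 612, 970 and 514 CPM, while Anxa1 was level at 195, 198 and 180 CPM. Save for Wfdc21 the knockout matched the control, and Rit1-M90I was the high library. In thinned cells Lcn2 and S100a8 were short of the threshold, at log2 ratios of -0.44 and -0.55. The primary granule genes, which are made earlier, differed less, with Elane at 9607, 8913 and 10227 CPM and Mpo at 7988, 6046 and 7269 CPM.

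Basophil genes in neutrophil progenitors were the reverse, with 3 of 5 measured called higher in the knockout and a median of 1.16. Prss34 was at 188 CPM in the knockout, 59.0 CPM in Rit1-M90I and 51.2 CPM in the control, a ratio of 3.18 (2.77 to 3.64) whose log2 value of 1.52 was 0.77 with doublets kept. Mcpt8 was at 135, 53.6 and 42.5 CPM and Cpa3 at 37.4, 11.3 and 18.3 CPM. Summed basophil proteases did not follow 1 order in other classes that do not make them, at 239, 149 and 50.6 CPM in T cells but 25.6, 162 and 21.3 CPM in lymphoid progenitors. Whether cells that carry both programs or free RNA give these tags was not tested.

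In basophils and mast cells 31 of 6224 genes (0.498%) were called higher in the knockout and 52 (0.835%) lower. Their own genes were level, with a median log2 ratio of 0.03 over 17 measured. Mcpt8 was at 18002 CPM in the knockout, 14807 CPM in Rit1-M90I and 14530 CPM in the control, and Prss34 at 20435, 21373 and 22695 CPM. Gzmb, granzyme B, was the only one of the 17 called, at 31.1, 15.2 and 19.7 CPM, and its log2 ratio with doublets kept was 0.29. Il6 was at 87.0, 111 and 102 CPM. Prg2, eosinophil major basic protein, was the lowest gene of this class at 6.38, 149 and 236 CPM. Its knockout value rests on 8 UMIs, with a ratio of 0.0429 (0.0185 to 0.0850), and its log2 ratio was -1.37 with doublets kept in place of -3.28. Rit1-M90I was nearer the control, and the knockout stood apart. Ighg2b was at 10.4, 75.0 and 7.40 CPM and Igkc at 253, 669 and 192 CPM, against an immunoglobulin sum in T cells of 750, 1176 and 644 CPM.

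In the monocyte lineage 10 of 5659 genes (0.177%) were called on each side. Ccnd1 was called higher, at 62.7 CPM in the knockout, 28.9 CPM in Rit1-M90I and 46.5 CPM in the control, a ratio of 2.17 (1.83 to 2.58). The control lay between the mutants. Gm42031 was at 10.6, 56.1 and 8.17 CPM, and Igkc at 61.5, 180 and 76.2 CPM. Spred1, a brake on RAS signalling that ERK induces, was at 25.5, 16.3 and 20 CPM, a ratio of 1.56 that was not called on the log2 scale with its pseudocount.

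The smaller classes called more genes, and their sums hold fewer UMIs. The count of called genes also depended on depth: in cells thinned to 3000 UMIs it was 216 in place of 15 in erythroid progenitors and 1145 in place of 240 in the stem class, so counts are not compared between classes. In stem and multipotent cells 97 of 6560 genes (1.48%) were called higher and 143 (2.18%) lower. Knockout stem cells had a median of 9274 UMIs against 5995 in Rit1-M90I. Immediate early genes, which respond to stimulation and to cell handling, were lower in the knockout, with 6 of 10 measured called, none above 0 and a median of -0.64 that ranged from -0.78 to -0.52 over the alternatives. Fos was at 6.78 CPM in the knockout, 26.3 CPM in Rit1-M90I and 32.8 CPM in the control. Jund was at 80.2, 139 and 168 CPM, Junb at 40.7, 72.5 and 41.9 CPM and Egr1 at 10.2, 24.9 and 12.0 CPM. For Fos and Jund the knockout stood below both libraries, while for Junb and Egr1 it matched the control. Egr1 in thinned cells, and Junb and Zfp36 under the stricter filter, were short of the threshold at -0.38, -0.57 and -0.58.

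S phase genes in stem cells leaned the other way, with 31 of 32 measured above 0, 5 called and a median of 0.39, which ranged from 0.35 to 0.45 over the alternatives. Uhrf1, which keeps DNA methylation through replication, was at 103 CPM in the knockout, 53.9 CPM in Rit1-M90I and 56.8 CPM in the control, a ratio of 1.91 (1.44 to 2.53). Mcm4, of the replication helicase, was at 103, 60.7 and 58.9 CPM, Hells at 163, 98.3 and 97.9 CPM and Usp1 at 129, 82.0 and 101 CPM. The log2 ratio of Usp1 was 0.59 as reported and short of the threshold with doublets kept (0.54), median-of-ratios scaling (0.54), the stricter filter (0.41) and thinned cells (0.22), and that of Mcm4 was 0.55 under the stricter filter. Cdc45 was at 23.7, 9.97 and 14.5 CPM, but its log2 ratio was -0.05 in thinned cells. Rfc2 was the lowest, with a ratio of 0.968. Rit1-M90I matched the control for Uhrf1, Mcm4 and Hells.

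Of 17 measured stem cell identity genes, 4 were called lower in the knockout and none higher, with a median of -0.16. Of all genes in this class, 2.18% were called lower. Mllt3, a regulator of stem cell maintenance, was at 16.9 CPM in the knockout, 42.6 CPM in Rit1-M90I and 36.1 CPM in the control. Txnip was at 154, 255 and 336 CPM and Pdzk1ip1, a marker of quiescent stem cells, at 14.7, 29.0 and 39.4 CPM. Ifitm1, given above, was the lowest. Cd34, at 452, 380 and 435 CPM, and Ly6a, at 85.8, 74.8 and 56.8 CPM, were the highest of the list. With doublets kept, the log2 ratio of Pdzk1ip1 was -0.51, short of the threshold, and that of Ly6a was -0.05. Fbp1, an enzyme of gluconeogenesis, was among the highest genes of the class, at 54.2, 7.70 and 12.4 CPM, a ratio of 7.04 (3.98 to 13.1). Cxcl10, an interferon-induced chemokine, was at 7.91, 54.4 and 2.49 CPM, so Rit1-M90I was the high library.

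In plasmacytoid dendritic cells 87 of 6337 genes (1.37%) were called higher and 78 (1.23%) lower. The S phase list had 4 of 32 called higher and a median of 0.34, with Uhrf1 at 163 CPM in the knockout, 94.7 CPM in Rit1-M90I and 136 CPM in the control. Gm42031 was at 16.7, 105 and 6.21 CPM. In conventional dendritic cells 222 of 6508 genes (3.41%) were called higher and 134 (2.06%) lower, the class resting on 99 knockout cells. Those 356 calls became 1279 with doublets kept and 2596 under the stricter filter, so they are not firm. Of 24 measured G2 and M phase genes 6 were called lower there, among them Ube2c at 76.6, 211 and 134 CPM and Ccnb2 at 104, 183 and 163 CPM, while Kif23 had a ratio of 1.26. Batf3, a factor that dendritic cells need, was at 91.1, 37.4 and 40.4 CPM, but its log2 ratio under the stricter filter was 0.46.

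In lymphoid progenitors 197 of 6650 genes (2.96%) were called higher and 185 (2.78%) lower, with 88 knockout cells. Cd74 was at 109 CPM in the knockout, 42.8 CPM in Rit1-M90I and 19.4 CPM in the control. Asap1, a regulator of membrane traffic and actin, was at 59.3, 18.2 and 22.5 CPM, with a log2 ratio of 0.58 under the stricter filter, at the threshold but not past it. Of 19 interferon-stimulated genes 4 were called higher and 1 lower, with a median of 0.23 that was -0.02 under the stricter filter. Prss34, a basophil gene, was at 8.01, 109 and 15 CPM in this class.

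The RAS pathway itself separated the mutants little at the mRNA level. Of 15 listed genes of the RIT1 and RAS family and the LZTR1 ligase, 8 were measured at equal composition, and none was called, with log2 ratios from 0.02 to 0.13 and a median of 0.04. Cul3, the ligase scaffold, was at 89.1 CPM in the knockout, 80.4 CPM in Rit1-M90I and 82.8 CPM in the control. Nras was at 60.5, 59.0 and 59.2 CPM and Hras at 64.1, 62.4 and 68.7 CPM. Of 18 RAS-MAPK cascade genes measured none was called, with a median of 0.08 against 0.03 over all genes. Spred1 was the highest at 29.6, 21.6 and 22.4 CPM and Ppp1cb, a phosphatase subunit that activates RAF, the next at 100, 87.2 and 93.6 CPM, while Araf and Mapk3 were the lowest. Lztr1 and Rit1 themselves were below the level of 20 CPM and are described above.

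Called ERK targets and brakes were found within classes. At equal composition 3 were measured and none was called, with a median of 0.32. In conventional dendritic cells 3 of 4 were called higher, and in the RAS-MAPK list 6 of 17 were called there against 3.41% of all genes. Spred1 and Spred2 are in both lists, so these counts share genes, and the calls of this class are not firm, as given above. Shoc2, a scaffold that activates RAF, was at 57.8 CPM in the knockout, 26.9 CPM in Rit1-M90I and 24.1 CPM in the control, and Sos1, which loads RAS with GTP, at 27.5, 13.7 and 21.7 CPM. Braf was at 39.0, 21.6 and 22.9 CPM and Spred1 at 33.3, 15.3 and 19.3 CPM. With doublets kept, the log2 ratios were 0.23 for Shoc2, 0.37 for Spred1, 0.49 for Spred2 and 0.24 for Ccnd1, all short of the threshold. Braf (0.57) and Shc1 (0.52), of the RAS-MAPK list, were short of it with median-of-ratios scaling, and Spred2 (0.42) in thinned cells. In lymphoid progenitors Etv5 and Dusp6, which ERK induces, were called higher, at 36.8 CPM in the knockout, 12.6 CPM in Rit1-M90I and 15 CPM in the control and at 48.1, 25.1 and 27.5 CPM, and Dusp5 lower at 17.6, 42.8 and 33.1 CPM. The log2 ratio of Dusp6 was 0.56 in thinned cells, and that of Dusp5 was -0.55 with doublets kept and -0.48 under the stricter filter, all short of the threshold. In stem cells Dusp6 was at 28.2, 10.4 and 23.2 CPM, with a log2 ratio of 0.30 in thinned cells.

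Ccnd1 levels varied among classes. In conventional dendritic cells it was at 322 CPM in the knockout, 182 CPM in Rit1-M90I and 267 CPM in the control, and in stem cells at 65.5, 37.6 and 36.5 CPM. In plasmacytoid dendritic cells it was at 245, 213 and 195 CPM and in erythroid progenitors at 20.2, 19.1 and 7.62 CPM, ratios of 1.15 and 1.06. The erythroid progenitor log2 ratio was -0.29 under the stricter filter. The difference in stem cells was 0.09 on the log2 scale in thinned cells. The difference between classes was not tested.

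Growth lists leaned to the knockout by small margins at equal composition. Of 32 S phase genes 31 were above 0 with none called and a median of 0.12, and Uhrf1 was at 95.1 CPM in the knockout, 75.5 CPM in Rit1-M90I and 81.6 CPM in the control. Of 24 genes of ribosome biogenesis and MYC targets 22 were above 0 with none called and a median of 0.16. Immediate early genes had a median of -0.12 over 8, the 10 interferon-stimulated genes of 0.10 and the 14 class I MHC genes of 0.11, none called. S phase medians were 0.01 in erythroid progenitors and 0.00 in erythroblasts and in neutrophil progenitors, so the classes that differed most in share showed no lean in this list.

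**Figure D5:**
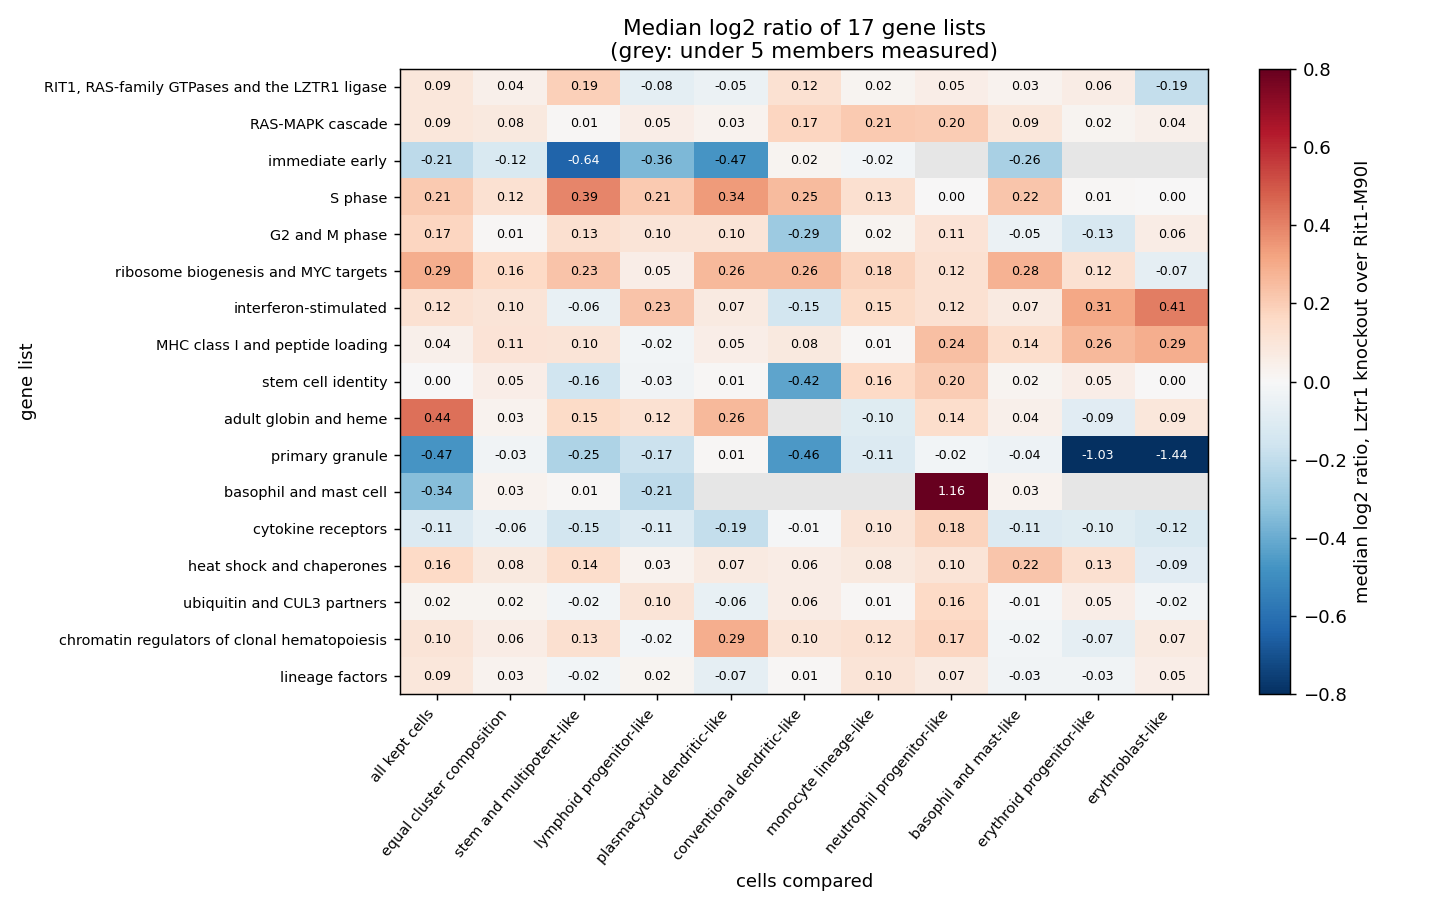
Each cell is the median log2 ratio (Lztr1 knockout over Rit1-M90I) of the measured members of 1 of 17 gene lists, over all kept cells, at equal cluster composition and in 9 classes, red where the knockout is higher and blue where Rit1-M90I is. The globin and heme list is 0.44 over all kept cells and 0.03 at equal composition, and the stem class pairs -0.64 for immediate early genes with 0.39 for S phase genes.

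Genes near the altered loci were examined because a bred allele carries its neighbourhood with it. Within 10 Mb on each side of Lztr1 on chromosome 16, 2 of 71 tested genes (2.82%) were called at equal composition, against 0.15% of all genes, and both were the lambda genes Iglc1 and Iglc2 described above. Within 10 Mb of Rit1 on chromosome 3, none of 98 was called, and the furthest was at 0.56 on the log2 scale. Chromosome 11 held 3 of the 9 called genes, AA465934, Wfdc21 and Ubb, among 513 tested (0.585%). Of these, AA465934 and Wfdc21 start within 1 Mb of each other, with the knockout the high library for the first and the low one for the second.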

How the data were processed

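Single-cell mRNA was counted in 3 libraries, 1 for each genotype. The matrices the authors deposited hold raw UMI counts without normalization, written by Cell Ranger 6.1.1 per the file headers, and the submitters' processing notes name the build mm10 and Seurat 4.1.0. For the annotation release and the cell-calling settings: not given in the sources used here. Of 32285 gene IDs, 32158 (99.6%) matched GENCODE M21, which gave positions. Near-identical genes can exchange reads, so Ubb, H2-Q7, histone, Hspa1a and Hspa1b, globin and immunoglobulin values are uncertain between copies.

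Doublets were called in each library with scrublet and removed (84 knockout, 450 Rit1-M90I and 250 control cells). One joint clustering of all libraries was made in scanpy 1.11.5 on logged values scaled to 10000 UMIs a cell (2000 variable genes without mitochondrial, ribosomal protein and sex-linked genes, Lztr1 and Rit1, 30 principal components, 15 neighbours, Leiden resolution 1), with no batch correction. Clusters were named from 243 markers of 19 classes. A name needed at least 3 of a class's markers among the 10 leading genes and a mean marker log2 of at least 0.5, or 2 among the 10 and 70% of the markers 2-fold higher at 20 CPM or more. Thresholds for names were chosen with the clusters in view, and rebuilt names can differ from the study's.

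CPM values come from UMIs summed over the cells of a class in 1 library. With 1 library a side no test, p-value or standard error was made. Shares have exact Clopper-Pearson intervals and their ratios log-normal (Katz) ones. Levels have exact Poisson intervals, and ratios of levels exact conditional ones or, at equal composition, log-normal ones from the Poisson counts. The comparison, the 32 gene lists and the markers were chosen with earlier results of these data known. Genes were named by rule, starting with Lztr1 and Rit1. At 50 CPM or more, the rule took the 12 highest and 12 lowest at equal composition and the 3 highest and 3 lowest in the 4 largest classes. Variable immunoglobulin segments were left out of both. It also took the 10 highest and 10 lowest class medians among genes of 1 sign in all, and the 2 highest and 2 lowest of each list described. Genes named over all kept cells, other called list members, genes below 50 CPM and genes of the 3 added classes were named after their values were seen. Counting code was tested on simulated data. A few genes that this rule names are not reported here.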

Additional observations from a re-analysis of the deposited data

How the results depend on the processing

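No paired analysis was possible because each genotype has 1 library. The cells per library limit the rare classes: in the smaller ones a 1.5-fold difference at 20 CPM rests on few knockout UMIs, and the knockout had 2338 cells. The causes of the changes below were not tested. Of the recomputed log2 share ratios 76 moved by no more than the counting interval, and 22 by more. Conventional dendritic cells went from 0.36 to 0.98 under a stricter cell filter (2000 UMIs, 1000 genes, 5% mitochondrial) and 0.72 at Leiden resolution 2, and lymphoid progenitors from 0.38 to 0.74 at that resolution. Erythroblasts went from 1.41 to 1.03 under the stricter filter, 0.98 with libraries clustered separately and 0.70 by marker score. The monocyte lineage went from -0.33 to 0.15 with doublets kept, -0.64 clustered separately, 0.07 by score and 0.08 at resolution 2. Neutrophil progenitors went from -0.90 to -0.31 clustered separately and -0.60 by score, plasmacytoid dendritic cells from 0.41 to 0.03 under the stricter filter and -0.61 clustered separately, the stem class from 0.18 to 0.50 by score and stroma from 0.79 to -0.32 by score and 3.43 clustered separately. Plasma cells went from -0.35 to -1.15 by score, eosinophils to -0.40 by score and -1.35 under the stricter filter, NK and innate lymphoid cells to -0.29 clustered separately and pro-B and pre-B cells to -0.21 by score. Over all kept cells the 36 genes higher became 69 with a pseudocount of 1 CPM and 21 with median-of-ratios scaling (45 lower there), and the 35 lower became 64 with that pseudocount. At equal composition the 4 higher became 9 with a pseudocount of 1, 7 with equal cluster weights and 2 without plasma cells, and the 5 lower became 9 with that pseudocount and 8 in thinned cells. Thinning to 3000 UMIs left out 295 knockout and 2355 Rit1-M90I cells. Genes called in a class, either way, changed in cells thinned to that depth. Basophils and mast cells went from 83 to 464, conventional dendritic cells from 356 to 1217, erythroblasts from 66 to 953, erythroid progenitors from 15 to 216 and lymphoid progenitors from 382 to 1220. The monocyte lineage went from 20 to 235, neutrophil progenitors from 64 to 809, plasmacytoid dendritic cells from 165 to 833 and the stem class from 240 to 1145. With a pseudocount of 1 CPM they were 249, 805, 188, 28, 810, 72, 257, 482 and 593 in that order. With every gene that had a UMI they were 131, 565, 131, 27 and 724 in the first 5 of these classes, 318 in plasmacytoid dendritic cells and 446 in the stem class. With doublets kept they were 1279 in conventional dendritic cells, 179 in lymphoid progenitors, 34 in the monocyte lineage, 34 in neutrophil progenitors and 367 in plasmacytoid dendritic cells. Under the stricter filter they were 2596 in conventional dendritic cells, 156 in lymphoid progenitors, 51 in the monocyte lineage and 290 in plasmacytoid dendritic cells. Of called log2 ratios, 5 changed sign, those of Iglc2 without plasma cells (-0.27), Gm42047 in erythroblasts (-0.28) and Cdc45 in the stem class (-0.05) in thinned cells, Ccl9 in plasmacytoid dendritic cells under the stricter filter (-0.11) and H2-Q7 in conventional dendritic cells with doublets kept (-0.04). Of list medians of at least 0.2 in size, 3 did so, which were interferon-stimulated genes in lymphoid progenitors under the stricter filter (-0.02), primary granule genes in the stem class with doublets kept (0.01) and eosinophil granule genes at equal composition with every gene that had a UMI (0.01). Of the other recomputed log2 ratios of named genes, 1485 kept their direction and side of the threshold, 64 were no longer past it, 34 were newly past it and 30 uncalled ones moved, 27 of them across 0 from at most 0.31 in size. Another 48 list medians of at most 0.13 in size changed sign.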

Other observations

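Some genes outside the comparisons above also separated the mutants over all kept cells. Spp1, osteopontin, was at 8.22 CPM in the knockout, 39.1 CPM in Rit1-M90I and 5.26 CPM in the control, and it was among the leading genes of the Rit1-M90I cluster of low UMI content. Ccl5, a chemokine of T and NK cells, was at 80, 145 and 300 CPM, in the order of the T cell shares, with a log2 ratio of -0.41 in thinned cells. Ms4a3, a gene of granulocyte and monocyte progenitors, was at 207, 346 and 215 CPM, and Cebpb, a myeloid factor, at 55.8, 89.3 and 67.1 CPM. The log2 ratio of Cebpb was short of the threshold in thinned cells (-0.53), with doublets kept (-0.57) and under the stricter filter (-0.55). Prg2 over all kept cells was at 27.8, 66.3 and 98.3 CPM. In erythroblasts Gm42047 was at 58.2, 27.0 and 44.2 CPM, and in plasmacytoid dendritic cells Ccl9, a chemokine, was at 104, 45.1 and 57.7 CPM, but both changed sign under another setting. Hspa1b, a heat shock gene that is uncertain between copies, was at 22.1, 12.6 and 40.1 CPM at equal composition, so both mutants were below the control.

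An unnamed cluster led by Fn1, Rsad2 and Notch2 held 81 control cells and 1 cell of each mutant. Stroma and endothelium made up 0.813% of knockout, 0.470% of Rit1-M90I and 0.234% of control cells, resting on 19 knockout, 44 Rit1-M90I and 17 control cells.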
